A study of Mus musculus with 7 samples.

Results

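Cytosolic ribosomal protein genes were examined in RNA sequencing of sorted mouse lung cells. They were taken as every row of the deposited table whose gene symbol is Rpl or Rps followed by a number, with at most an a or x after it, or is Rplp0, Rplp1 or Rplp2. This gave 75 of 35641 genes, of which 46 encode proteins of the large subunit and 29 proteins of the small subunit. The libraries came from cells that the labels call neutrophils, of female C57BL6 mice, 4 from mice named HF and 3 from mice named LF. The labels do not spell out these names and give no age, diet or genotype. The study's title names obesity and oxidative stress. Every library was made from cells gated as CD45+ CD11b+ Ly6Clo Ly6G+, with a SMART-Seq kit, which copies and amplifies complementary DNA from little RNA.

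The cytosolic ribosome joins amino acids into proteins. Its small subunit reads the messenger RNA, and its large subunit forms the peptide bond and holds the tunnel through which the new chain leaves. Each ribosome holds about equal numbers of most of these proteins, and their messenger RNAs share a start of pyrimidines, the TOP element, through which the growth kinase mTOR and the RNA-binding protein Larp1 control their translation. Neutrophils leave the bone marrow as short-lived cells that no longer divide, while monocytes can still mature into macrophages.

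The LF-labelled libraries went against the sort. Ly6g, the gene of the Ly6G marker, stood at 0.749, 0 and 8.22 normalized counts in them, and at 1301 or more in every HF library. Of 15 neutrophil markers HF had 14 higher and 0 lower, with summed levels of 434552 to 589925 in HF and 12926 to 14352 in the LF-labelled libraries, where no marker was at 0 in all 3. Of 16 monocyte and interstitial macrophage markers 0 were higher and 13 were lower, with sums of 25365 to 36400 and 191146 to 200958. Dendritic cell and MHC class II genes had 10 of 13 lower, with sums of 13030 to 32078 and 79303 to 96418. Alveolar macrophage markers (2 higher and 1 lower of 10), B and plasma cell markers (1 and 2 of 10), T cell markers (0 of 14) and NK cell markers (0 of 10) mostly did not pass. Gene-assigned reads numbered 13943173 to 16599658 in HF and 16974428 to 18983351 in the LF-labelled libraries. The part of these cell type differences in the results below was not tested, and each direction below compares HF with the LF-labelled libraries.

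Nearly the whole family was lower in HF. Of the 75 genes 69 were lower, 3 were higher on the authors' scaling (Rps9, Rpl37 and Rps27, each turned by another scaling, as given below) and 3 did not pass the test (Rpl24, Rpl41 and Rps27a), by limma on log2(normalized count + 1) at an adjusted p of 0.05 over all tested genes. Among all 14936 tested genes 28.7% were lower and 26.2% were higher. All 75 genes passed the filter on low values, a mean of at least 10 normalized counts. Their median log2 difference, HF minus LF, was -1.07, with a range of -2.28 to 0.67, against a median of -0.16 over all tested genes. In 71 genes every HF library lay below every LF-labelled library, in 3 every HF library lay above, and Rps27a alone overlapped. Such separation was found in 33.7% of all tested genes with HF below and in 28.4% with HF above. In a bulk sample, fewer cells of a type and less RNA per cell cannot be told apart.

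The size of the difference was spread over the family. The log2 difference was under -2 in 2 genes, between -2 and -1.5 in 14, between -1.5 and -1 in 28, between -1 and -0.5 in 21, between -0.5 and 0 in 7, and above 0 in 3. Both subunits were lower by a like amount, with 43 lower and 1 higher of the 46 large subunit genes (median -1.08) and 26 lower and 2 higher of the 29 small subunit genes (median -1.07). The authors' deposited table gave 68 of the 75 genes a negative log2 fold change with an adjusted p under 0.05, and the same 3 genes a positive one. Setting all libraries to equal totals shifted the median of all genes by -0.51 and that of the family to -1.59.

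**Figure D1:**
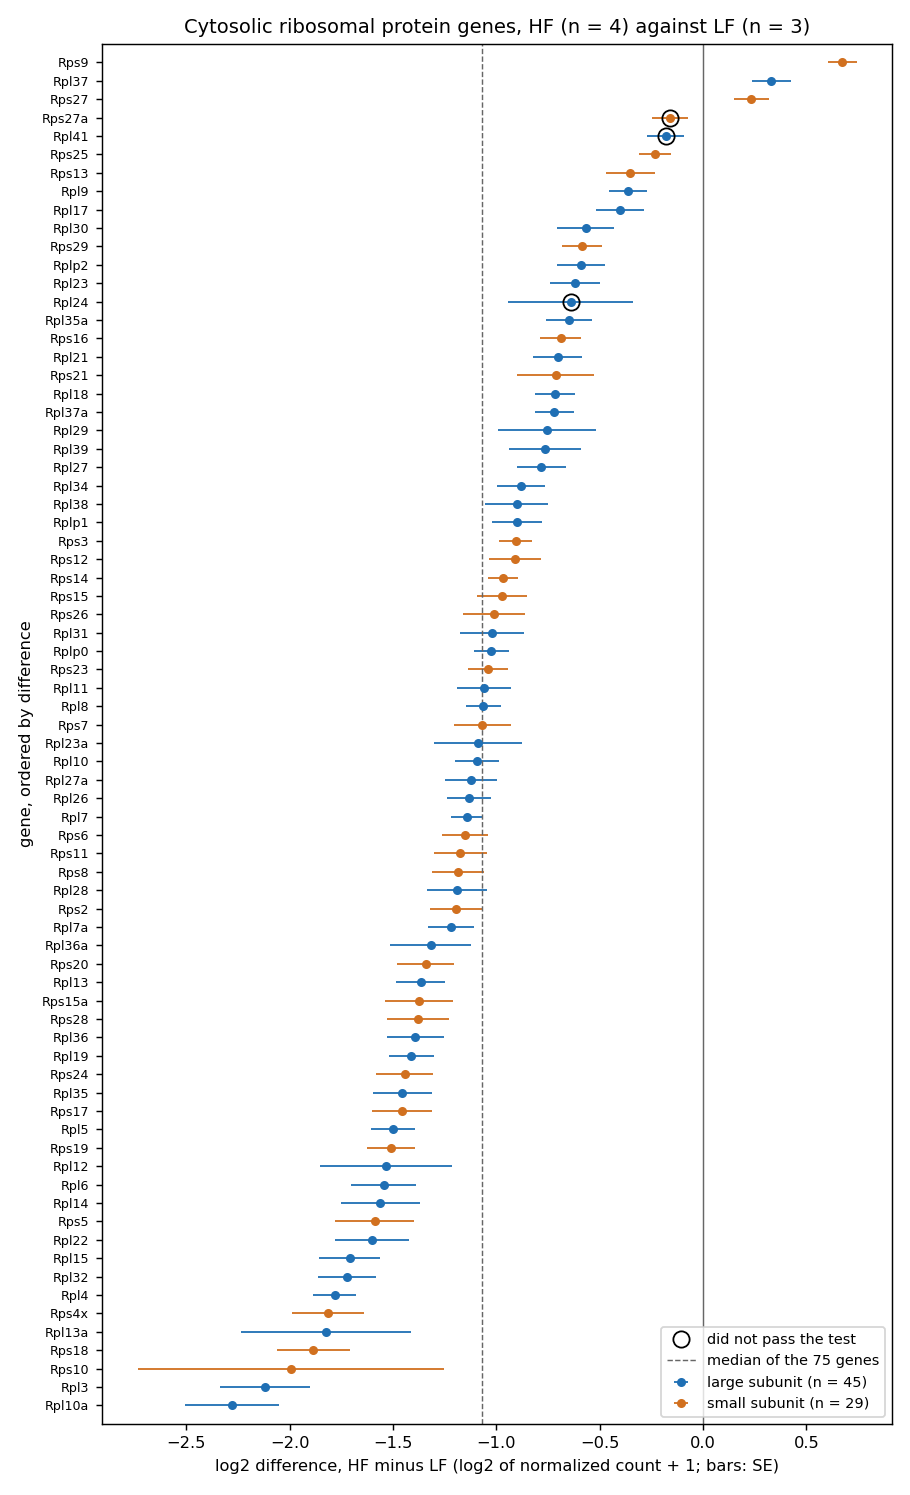
Log2 difference, HF minus LF, of 74 of the 75 genes (x axis, log2 of normalized count + 1) with its standard error, ordered from the highest at the top, with large subunit genes in blue and small subunit genes in orange. Most genes lie between -2 and 0 around the dashed median of -1.07, the 3 ringed genes did not pass the test, and of the 3 genes right of 0 Rpl37 and Rps27 lie left of 0 with equal library totals and Rps9 and Rps27 do after quantile normalization.

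As a share of all reads assigned to genes, the family took 0.448%, 0.423%, 0.426% and 0.431% in HF replicates 1 to 4, a mean of 0.432% ± 0.0111 (SD, n = 4). It took 1.13%, 1.19% and 1.07% in the columns headed LF6, LF7 and LF8, a mean of 1.13% ± 0.0619 (SD, n = 3). The lowest LF-labelled library thus lay above the highest HF library. Transcripts of the 13 protein genes of the mitochondrial genome also took a lower share in HF. It was 0.151% to 0.265% of reads, against 0.42% to 0.486% in the LF-labelled libraries. Within HF replicate 2 had the highest mitochondrial share (0.265%) and the lowest family share (0.423%). Replicates 1, 4 and 3 fell in this order, from high to low, on both shares. The part of the mitochondrial transcripts in the result was not tested. Rps9, the member with the highest counts in HF (in the LF-labelled libraries Rplp0 and Rpl4 had higher means), shows in the share: without it the family took 0.381% to 0.403% of reads in HF and 1.03% to 1.15% in the LF-labelled libraries. The ratio of summed large to small subunit levels was 1.16 ± 0.0392 in HF (SD, n = 4) and 1.41 ± 0.0258 in the LF-labelled libraries (SD, n = 3). That gap rested on Rps9: without it the ratio was 1.44 to 1.54 in HF and 1.52 to 1.57 in the LF-labelled libraries, and the groups overlapped.

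**Figure D2:**
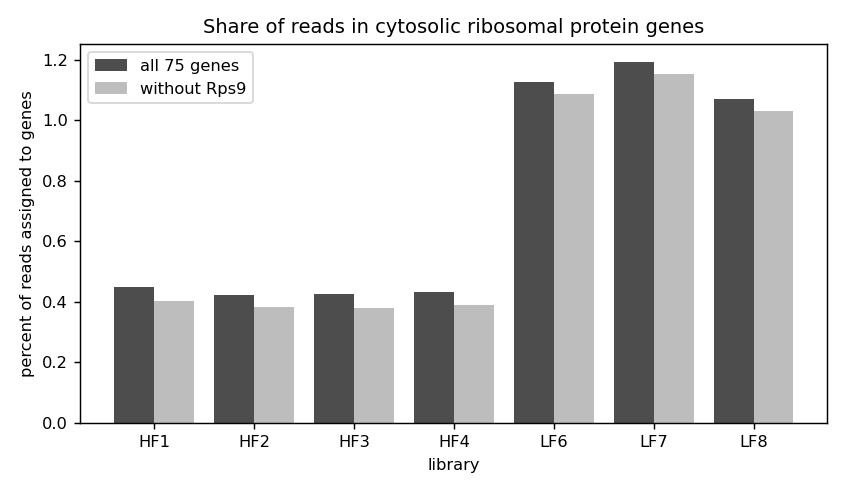
Percent of the reads assigned to genes (y axis) that fell in the 75 genes (dark bars) and in the 74 genes other than Rps9 (light bars), for each of the 7 libraries (x axis). The 4 HF libraries lie between 0.423% and 0.448% and the 3 LF-labelled libraries between 1.07% and 1.19% with all 75 genes.

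Promoters were read to show the sequences of genes that moved with and against the family. RefSeq promoters (build GRCm38.p6, from 250 bases before the start to 50 after it) were found by symbol for 55 of the 75 genes. Below are the 40 bases before the start and the first 30 transcribed bases of the 3 genes higher in HF on the authors' scaling and of the 6 of the 8 genes with the lowest differences (mean of at least 50) whose promoter was found. Capitals mark CTTTCC on the gene's strand within 50 bases of the start, a pyrimidine stretch of the kind found where these transcripts begin, and ACTTCC or its complement GGAAGT, the core bound by ETS-type factors. Letters were searched as given, and at one position a stretch can match only 1 of these motifs.
Rps9 (chr7:3704001-3704070, plus strand): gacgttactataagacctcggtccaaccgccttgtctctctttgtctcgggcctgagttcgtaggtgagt
Rpl37 (chr15:5116573-5116642, plus strand): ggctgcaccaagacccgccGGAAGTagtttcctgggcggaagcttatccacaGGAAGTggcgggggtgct
Rps27 (chr3:90213619-90213688, minus strand): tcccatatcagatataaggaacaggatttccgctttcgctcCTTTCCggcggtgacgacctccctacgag
Rpl10a (chr17:28328431-28328500, plus strand): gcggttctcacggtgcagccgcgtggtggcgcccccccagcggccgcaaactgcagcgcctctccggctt
Rps18 (chr17:33955636-33955705, minus strand): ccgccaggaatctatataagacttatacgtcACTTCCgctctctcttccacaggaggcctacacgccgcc
Rpl13a (chr7:45128716-45128785, minus strand): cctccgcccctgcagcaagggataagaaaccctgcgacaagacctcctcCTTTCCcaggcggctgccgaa
Rps4x (chrX:102189362-102189431, minus strand): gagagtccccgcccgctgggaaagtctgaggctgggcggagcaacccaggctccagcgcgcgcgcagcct
Rpl4 (chr9:64173347-64173416, plus strand): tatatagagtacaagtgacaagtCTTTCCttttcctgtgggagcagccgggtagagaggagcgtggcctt
Rpl15 (chr14:18270957-18271026, minus strand): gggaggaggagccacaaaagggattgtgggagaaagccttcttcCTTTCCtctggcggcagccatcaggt

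Marked letters stood in these 70 bases of 27 of the 55 promoters, in genes on both sides: in 4 of the 6 lower genes shown (not in Rpl10a or Rps4x), and in Rpl37 and Rps27 but not in Rps9. CTTTCC lay within 50 bases of the start in 29.1% of the 55 family promoters and in 4.67% of all 27025 promoters of the table. ACTTCC, on either strand of the 300 bases, was in 50.9% and 24.1%, and AAGATGGC, the core bound by Yy1, was in 7.27% and 2.88%. Within 50 bases of the start, the longest run of pyrimidines had a median of 11 bases in the family and 7 in all promoters. A match is a description of these letters, and nothing was measured here on binding.

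Of the large subunit, genes of the catalytic core and the tunnel come first. Counts for parts of the ribosome below are to be read beside the 69 of 75 genes lower in the whole family. Rpl3, which reaches towards the peptidyl transferase centre, stood at 784, 955, 718 and 1415 normalized counts in HF replicates 1 to 4 and at 4179, 4046 and 3950 in LF6, LF7 and LF8. HF replicate 4 was the highest of the HF libraries and still lay well under the lowest LF-labelled library. Its log2 difference was -2.12 ± 0.22 (SE, limma adjusted p = 9.4e-05). Rpl4, a protein of the tunnel wall, stood at 1423, 1394, 1427 and 1781 in HF and at 5179, 5295 and 5002 in the LF-labelled libraries, a difference of -1.78 ± 0.1 (SE, limma adjusted p = 3.9e-06). Its HF libraries lay close together apart from replicate 4. Rpl8 and Rpl10, which also border the catalytic centre, had differences nearer the family's median, -1.06 and -1.10. All 9 proteins listed for the tunnel and its exit were lower (median -1.13), from Rpl4 to Rpl17 at -0.40. The call of Rpl17 was lost without LF6 (-0.39) and without LF7 (-0.34).

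The protein of the L1 stalk, Rpl10a, had the lowest difference of the family on the authors' scaling (after quantile normalization Rpl3 had). It stood at 126, 143, 135 and 219 in HF and at 766, 778 and 682 in the LF-labelled libraries, a log2 difference of -2.28 ± 0.23 (SE, limma adjusted p = 7.9e-05). On the linear scale its mean in HF was 79% under that in the LF-labelled libraries. The L1 stalk moves spent transfer RNA out of the ribosome. At the other side of the large subunit lies the P stalk, which recruits and activates the elongation factors. All 4 of its genes were lower. Rplp0, the stalk's base, stood at 2789, 2871, 2509 and 3097 in HF and at 5583, 5969 and 5594 in the LF-labelled libraries, a difference of -1.02 ± 0.09 (SE, limma adjusted p = 3.1e-05), so that the groups lay about a factor of 2 apart. The acidic proteins bound to it, Rplp1 and Rplp2, had differences of -0.90 and -0.59, and Rpl12, at the foot of the stalk, had -1.53.

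Rpl5 and Rpl11 bind 5S ribosomal RNA, and outside the ribosome the same complex binds Mdm2, the ubiquitin ligase of p53. Rpl5 stood at 543, 498, 522 and 493 in HF and at 1413, 1516 and 1443 in the LF-labelled libraries, a difference of -1.5 ± 0.11 (SE, limma adjusted p = 1.1e-05). Rpl11 had -1.06 ± 0.13 (SE, limma adjusted p = 0.00025). Both were separated with no overlap. Of the other large subunit genes with the lowest differences, Rpl32 had -1.72 and Rpl15 -1.71, both structural proteins bound to 28S ribosomal RNA. Rpl22, an RNA-binding protein of the tunnel exit with a part in T cell development, had -1.60. Rpl13a, which in monocytes can leave the ribosome to silence inflammatory messenger RNAs, was low throughout. It stood at 39.2, 34.7, 39.2 and 18.0 in HF and at 102, 95.3 and 151 in the LF-labelled libraries, a difference of -1.82 ± 0.41 (SE, limma adjusted p = 0.0063). These values rest on 110 reads in HF and 483 in the LF-labelled libraries.

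The head of the small subunit turns as the messenger RNA moves by a codon. Of its 14 listed proteins 13 were lower in HF, with a median of -1.16, and 1, Rps27a, did not pass. Rps18, which touches the large subunit from the head, stood at 716, 683, 705 and 1103 in HF and at 2951, 3073 and 2704 in the LF-labelled libraries, a difference of -1.89 ± 0.18 (SE, limma adjusted p = 5.7e-05). Without replicate 4 the HF libraries lay within a narrow band. Rps19, the gene most often mutated in Diamond-Blackfan anaemia, an inherited failure of red cell production, had -1.51 ± 0.12 (SE, limma adjusted p = 1.8e-05). Of 20 genes tied to that anaemia 19 were lower and 1, Rps27, was higher by this fit (negative with equal library totals or quantile normalization). Their median was -1.24, while the whole family had 69 of 75 lower and a median of -1.07. Rps10, also in the head, had 14 reads in HF and 77 in the LF-labelled libraries. Its difference of -2.0 ± 0.74 (SE, limma adjusted p = 0.05) was lost in 12 alternatives, without HF replicate 3, HF replicate 4, LF6, LF7 or LF8 among them.

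In the body of the small subunit, Rps4x, the X-linked form of its protein, stood at 964, 595, 851 and 948 in HF and at 2937, 3050 and 2728 in the LF-labelled libraries, a difference of -1.81 ± 0.17 (SE, limma adjusted p = 6.5e-05). HF replicate 2 was the lowest. Rps6, the protein that S6 kinase phosphorylates downstream of mTOR, had -1.15 ± 0.11 (SE, limma adjusted p = 6.7e-05). Rps2 and Rps3, which line the entry of the messenger RNA channel, had -1.20 and -0.91. Rps9 is the third protein at that entry.

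Rps9 was the member with the highest normalized counts in all 4 HF libraries. It stood at 8035, 7364, 8341 and 8441 in HF replicates 1 to 4 and at 5098, 5144 and 4863 in LF6, LF7 and LF8. Every HF library lay above every LF-labelled library, and the log2 difference was 0.67 ± 0.07 (SE, limma adjusted p = 8.4e-05), which fell to 0.15 with equal library totals and turned to -0.14 after quantile normalization. Rpl37, a small zinc-binding protein at the surface of the large subunit, stood at 1879, 1778, 2042 and 2004 in HF and at 1554, 1616 and 1422 in the LF-labelled libraries. Its difference was 0.33 ± 0.09 (SE, limma adjusted p = 0.018), but -0.19 with equal library totals, and its call was lost without LF6 or LF8, with no trend and after quantile normalization. Rps27, a zinc-binding protein of the small subunit's platform, stood at 2987, 2906, 3303 and 2862 in HF and at 2615, 2669 and 2407 in the LF-labelled libraries. Its difference was 0.23 ± 0.08 (SE, limma adjusted p = 0.046), but -0.22 after quantile normalization and -0.29 with equal library totals. The call of Rps27 as higher was lost or turned in 11 alternatives, without HF replicate 1, HF replicate 3, LF6, LF7 or LF8 among them.

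Rps27 is also uncertain for another reason: 98.6% of its 50-base windows occur in Rps27rt, a near-identical copy, while 31.3% of those of Rpl37 occur in Rpl37rt. Rps27rt held 3.74 to 4.08 reads per 100 of Rps27 in HF and 4.38 to 4.72 in the LF-labelled libraries.

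The 3 genes that did not pass lay close to their groups' edges. Rps27a, made as a fusion with ubiquitin, stood at 2379, 2148, 2424 and 2221 in HF and at 2610, 2685 and 2392 in the LF-labelled libraries, and was the one gene whose groups overlapped (difference -0.16 ± 0.09, SE, limma adjusted p = 0.15). Rpl41, among the smallest of all proteins, had -0.18 ± 0.09 (SE, limma adjusted p = 0.12). Both passed as lower after quantile normalization and with equal library totals. Rpl24 had -0.64 ± 0.3 (SE, limma adjusted p = 0.1) on 220 reads in HF and 423 in the LF-labelled libraries, and passed as lower with equal library totals and with no trend.

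**Figure D3:**
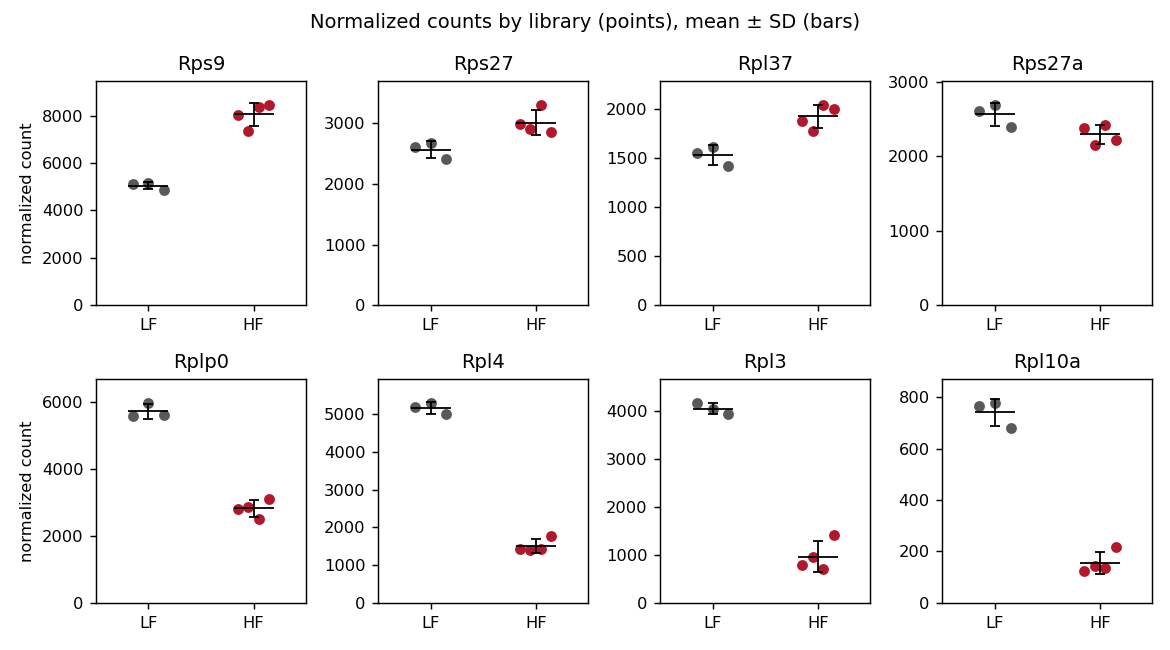
Normalized counts (y axis, from 0) of 8 genes in each library (points), with the mean and SD of the 3 LF-labelled libraries (grey) and the 4 HF libraries (red). Rps9, Rps27 and Rpl37 lie higher in HF on the authors' scaling (Rps27 and Rpl37 lower with equal library totals, Rps9 and Rps27 lower after quantile normalization), Rps27a overlaps, and Rplp0, Rpl4, Rpl3 and Rpl10a lie lower with no overlap.

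**Figure D4:**
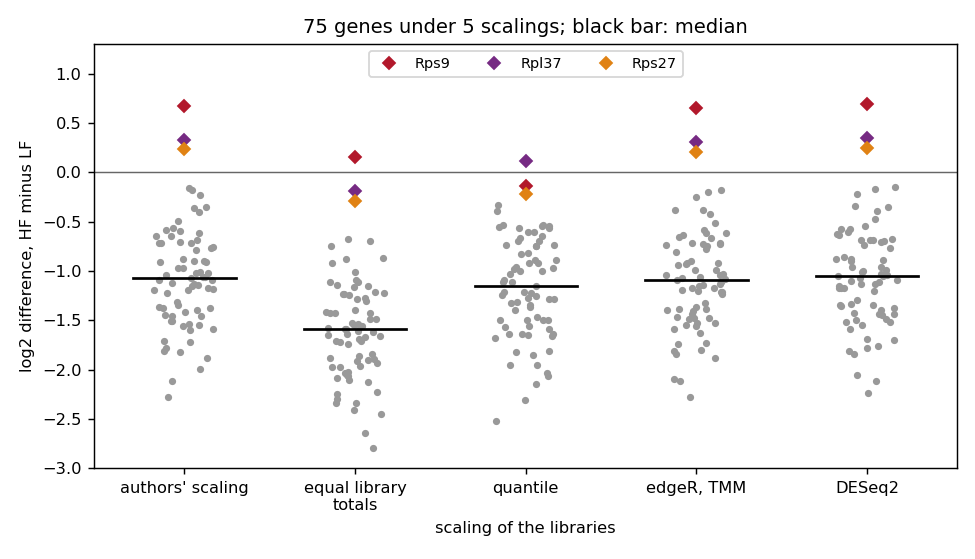
Log2 difference, HF minus LF (y axis), of the 75 genes under 5 scalings of the libraries (x axis), with the median as a black bar. The authors' scaling, edgeR with TMM and DESeq2 leave 72 genes under 0 and Rps9, Rpl37 and Rps27 above it, while equal library totals leave only Rps9 above 0 and quantile normalization only Rpl37.

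To compare the genes with each other, each library's values were set against the median of the 75 genes in that library and the same limma fit was run on all genes. A difference in scaling between libraries cancels in this measure. Against the family 17 of the 75 genes lay above and 18 below, and 40 did not pass. Among all tested genes 45.8% lay above the family and 10.7% below, so the family's own median was low among genes. Rps9 lay above it by 1.70 ± 0.07 (SE, limma adjusted p = 2.3e-07), Rpl37 by 1.36 ± 0.1 (SE, limma adjusted p = 5e-06) and Rps27 by 1.26 ± 0.1 (SE, limma adjusted p = 9.7e-06). These 3 calls held in each of the 13 alternatives run on this measure. Next came Rps27a at 0.87, Rpl41 at 0.85 and Rps25, a head protein that some viral messenger RNAs need for internal initiation, at 0.79. Rps13, Rpl9 and Rpl17 lay between 0.62 and 0.67 above.

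Below the family lay Rpl10a at -1.25, Rpl3 at -1.09, Rps18 at -0.86, Rps4x at -0.79, Rpl4 at -0.76, Rpl32 at -0.70 and Rpl15 at -0.68. The remaining 11 below it lay between -0.58 and -0.34, Rpl5 (-0.48) and Rps19 (-0.49) among them. The subunits were split alike, with 10 above and 12 below of the 46 large subunit genes and 7 above and 6 below of the 29 small subunit genes. Rplp0, often used as a reference gene, had a difference of 0.00186 from the family. Leaving out 1 LF-labelled library moved the number below the family to 11 without LF6, 11 without LF7 and 10 without LF8.

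Levels of different genes were compared as mean normalized count per kilobase of a GENCODE M21 transcript chosen for each gene. Whether the cells used that transcript was not tested, so places by this measure depend on the choice. The order was similar in both groups (Spearman's rho of 0.90 over 75 genes, which share their lengths and counting), and the top pair changed places. In the LF-labelled libraries Rps27 stood first at 7431 per kilobase and Rps9 second at 6704. In HF Rps9 stood first at 10713 and Rps27 second at 8737, and together with Rpl41, Rps27a and Rps25 they made up the first 5. Rps9 was 9.70% of the family's summed level per kilobase in HF and 3.50% in the LF-labelled libraries, and Rps27 7.91% and 3.88%. Rpl37 moved from place 46 in the LF-labelled libraries to place 12 in HF. Rpl32 moved from place 4 to 19, Rps18 from 6 to 26 and Rpl4 from 20 to 42.

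**Figure D5:**
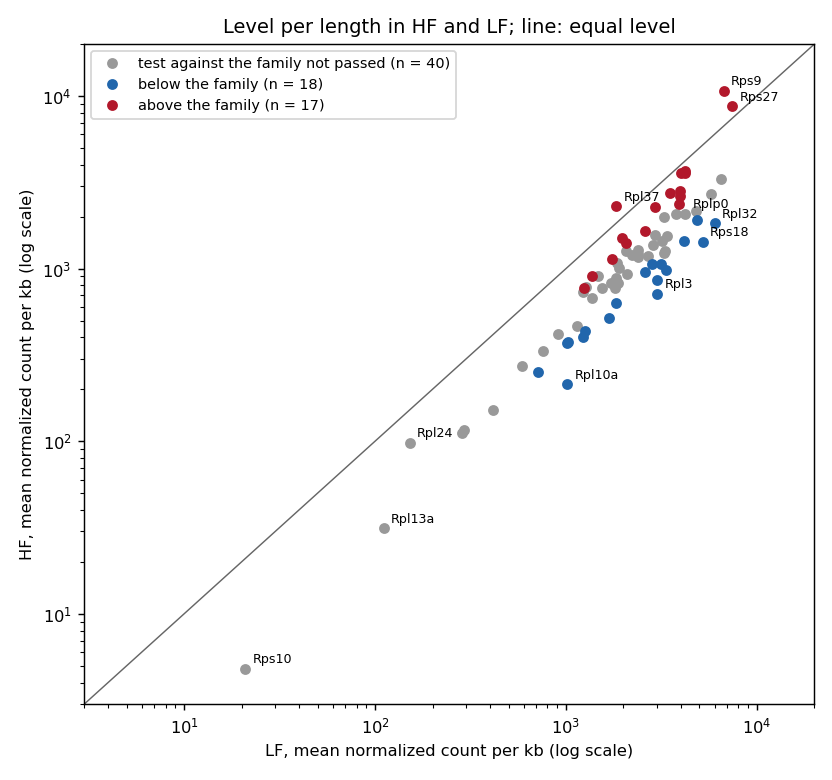
Mean normalized count per kilobase of transcript in the LF-labelled libraries (x axis, log scale) and in HF (y axis, log scale) for the 75 genes, coloured by the test against the family's median, with the line of equal level. Most genes run parallel below the line, Rps9, Rps27 and Rpl37 lie above it on the authors' scaling (Rps27 and Rpl37 below it with equal library totals, Rps9 and Rps27 after quantile normalization), and Rpl24, Rpl13a and Rps10 are the lowest in both groups.

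The 3 genes lowest per kilobase in both groups were Rps10, Rpl13a and Rpl24. They are also the 3 genes with over 50% of their exon bases covered by another gene on the same strand in GENCODE M21. A counter may set shared reads aside, and whether this lowered their counts was not tested. The overlapping genes have no values in the deposited data, and the annotation used in counting is not given in the sources used here. Rpl35 and Rpl23a have over 50% covered on the opposite strand, and the sources used here do not say if strand was used in counting. Ribosomal protein genes also have many processed copies in the genome, and 45 of the 75 share over 50% of their 50-base windows with another gene. These 45 had a median difference of -1.10 and the other 30 one of -1.02. Rows named as ribosomal protein pseudogenes numbered 226 and held 1.8 to 2.55 reads per 100 of the family's reads in HF and 1.88 to 2.01 in the LF-labelled libraries. Of the 52 tested, 5 were higher and 18 lower in HF, beside 26.2% higher and 28.7% lower among all tested genes.

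Within the family, genes with a shorter chosen GENCODE M21 transcript differed less. Whether the cells used the chosen transcripts was not tested, so the length classes depend on that choice. The 25 shortest of the 75 (345 to 613 bases) had a median difference of -0.90. It was -1.06 in the middle 25 (614 to 891 bases). The 25 longest (892 to 5130 bases, with Rps20 at 3706 and Rps15a at 5130) had one of -1.22. Other protein-coding genes in the same length ranges had medians of 0.02 (190 genes), -0.45 (417 genes) and -0.35 (9315 genes). Over the 75 genes the Spearman correlation of length with the difference was -0.29. Over 9922 other protein-coding genes, up to the length of the longest member, it was 0.001.

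Several ribosomal protein genes carry names outside the rule. Rpsa, which doubles as a laminin receptor, had a difference of -2.13 and Rps3a1 one of -0.97, both with limma adjusted p of 4.4e-05 or lower. Fau, a fusion of Rps30 with a ubiquitin-like protein, was higher in HF, at 2940, 2746, 3088 and 3038 against 1967, 1979 and 1864 (difference 0.61 ± 0.08, SE, limma adjusted p = 0.00034), but its difference was 0.09 and did not pass with equal library totals (limma adjusted p = 0.34).

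Some of these proteins have a paralog that can take their place. Rpl3l, the striated muscle form of Rpl3, was higher in HF at 225, 226, 175 and 217 against 63.7, 57.1 and 58.2 (difference 1.80 ± 0.23, SE, limma adjusted p = 0.00034). Per 100 reads of Rpl3 there were 28.7, 23.7, 24.4 and 15.3 of Rpl3l in HF and 1.52, 1.41 and 1.47 in the LF-labelled libraries, and the genes share no 50-base window. Rps27l, a p53 target, had 18.1 to 24.7 reads per 100 of Rps27 in HF and 55.8 to 57.9 in the LF-labelled libraries. Its own difference was -1.21 (limma adjusted p = 9e-05). Rpl22l1, whose splicing Rpl22 represses, did not pass (-0.21), and it held 135 to 289 reads per 100 of Rpl22 in HF against 72.8 to 82.8. The HF and LF ratios did not overlap in these 3 pairs, nor for Rps27rt with Rps27 and Rpl39l with Rpl39. How often the ratios of other gene pairs separate was not examined. For Rps4l and Rpl37rt the ratios overlapped. Rps4l held 3.47, 14.0, 8.30 and 2.44 reads per 100 of Rps4x in HF and 3.90, 4.11 and 4.17 in the LF-labelled libraries. Rpl37rt held 7.85 to 10.3 per 100 of Rpl37 in HF and 9.38 to 10.9 in the LF-labelled libraries. Rpl39l had 0 reads in HF and 2, 3 and 16 in LF6, LF7 and LF8.

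The wider machinery of translation was read beside the family, against the 28.7% of all tested genes lower and 26.2% higher. Of 18 elongation factors and other genes with TOP messenger RNAs, 18 were lower and 0 higher (median -1.21), with Eef1a1, the factor that brings transfer RNA, at -1.35 and Eef2, which moves the ribosome on, at -1.13. Of 48 ribosome biogenesis genes 33 were lower and 1 higher, with a median of -2.01. Npm1, a nucleolar chaperone counted in both lists, had -2.41 and Mybbp1a, a nucleolar regulator of ribosomal RNA transcription, had -2.75. Nucleolin (Ncl), the most abundant of the list, did not pass at -0.27. Of 77 mitochondrial ribosomal protein genes 60 were lower and 3 higher (median -1.34), and of 46 initiation factor genes 33 were lower and 4 higher (median -0.86). Of the 26 tested genes of TOP messenger RNA control 6 were higher and 9 lower, shares near those of all tested genes. Eif4ebp1, the inhibitor of cap-dependent translation that mTOR switches off, was higher by 1.65, Larp1 had -2.84, and Deptor, an inhibitor bound to mTOR, had -3.36.

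Within HF the family varied more than within the LF-labelled libraries. The coefficient of variation had a median of 11.7% over the 75 genes in HF (n = 4) and 5.57% in the LF-labelled libraries (n = 3). The same spread over all genes was not computed. The family had 58923 to 70740 reads per library in HF and 196773 to 202763 in the LF-labelled libraries. The part of read number in the spread was not tested. The most even gene in HF was Rps14 at 2.64% and the least even Rps10 at 57.3%. HF replicate 4 was the highest HF library in 29 genes and replicate 1 in 26, while replicate 2 was the lowest in 34.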

How the data were processed

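RNA of 7 libraries was made with TRIzol LS and a SMART-Seq kit, per the labels' protocols. Tools listed in the submitters' processing notes, without their roles, are DESeq2 1.20.0, STAR 2.6.1b and featureCounts 1.6.3. Build, annotation and strand setting: not given in the sources used here. The deposited table holds a signal per gene and library, normalized counts by its name. All values were whole multiples (within 0.01) of the value of 1 read, so reads could be recovered. Per the file headers the authors' deposited table also gives log2 fold changes and adjusted p-values. LF columns are numbered 6 to 8 and the labels 1 to 3, so these columns carry no replicate number. There were 0 columns that could not be given a group. Per the series' design each library is a mouse, so p-values reflect the spread among mice.

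Genes with a mean of at least 10 were tested in R 4.3.3 by limma 3.58.1 (trend=TRUE) on log2(normalized count + 1), with Benjamini-Hochberg adjustment at 0.05, and again after subtracting each library's median over the 75 genes. The pseudocount of 1 understates changes of low genes. As alternatives, pseudocounts of 0.5 and 5, filters at a mean of 50 and at none, a robust prior, no trend, equal totals, quantile normalization, each library left out, and edgeR 4.0.16 and DESeq2 1.42.0 on the reads were run. edgeR with the authors' size factors called 7624 of all genes. The fits were also run on simulated counts with known changes in far fewer genes than were called here. No result rests on that run. The members and lists were chosen with earlier results of these data known. Named were the 8 lowest and 8 highest differences among members with a mean of at least 50, the 4 highest means, members not lower, members of known roles, and of other lists the 3 lowest p and the 1 highest mean. Other members named were chosen after their values were seen. A few genes under this rule are not reported here. Transcript lengths, windows and overlaps are from GENCODE M21, matched by gene identifier for all 75. Figures were drawn with matplotlib 3.10.9.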

Additional observations from a re-analysis of the deposited data

Results flagged for a closer look

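In 5 of the 75 groups of 4 HF values, 1 library lay far from the others by Dixon's ratio, and chance flags about 1 in 20 groups. HF replicate 4 was high in Rps18 (1103 normalized counts), Rpl4 (1781), Rps19 (1341) and Rpl31 (529.8). HF replicate 2 was low in Rps29 (951).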

How the results depend on the processing

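No paired analysis was possible because the LF columns carry no replicate number of the labels, and the labels name no pairs of mice. Each library is a mouse, so a shared replicate number alone would not have made a pair. Of 69 genes lower in HF, 61 stayed lower and past the threshold in all 18 alternatives. The other 8, which lost the call in at least 1, were Rpl9, Rpl17, Rpl23a, Rpl29, Rps10, Rps13, Rps21 and Rps25. The number lower was 62 to 73 over these, and 62 to 69 with 1 library left out. The number higher, 3, was 1 with no trend, 1 with equal totals, 0 after quantile normalization, and 1 to 3 with 1 library left out (1 without LF6 or LF8). The median difference of the members, -1.07, moved to -1.59 with equal totals and -1.16 after quantile normalization, and was -1.10 to -1.04 with 1 library left out. The 18 genes below the family became 10 to 21 with 1 library left out, and the 17 above it 12 to 20 over the alternatives.

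Directions turned for Rps27 (-0.29 with equal totals, -0.22 after quantile normalization), Rpl37 (-0.19 with equal totals), Rps9 (-0.14 after quantile normalization), Rpl22l1 (0.17) and Rpl9-ps6 (7.7e-05), both after quantile normalization. Rps27rt turned to -0.50 with equal totals and -0.0025 with TMM, and lay between -0.0375 (without HF replicate 3) and 0.0684 with 1 library left out. The cause was not tested. Depth limits Rps10 (14 and 77 reads), Rpl13a and Rpl24 most.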
